A study of Mus musculus with 31 samples.

Results

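The Bacteroidales are an order of Gram-negative anaerobes that ferment polysaccharides in the gut. Among the 16 amplicon sequence variants (ASVs, exact 16S rRNA gene sequences) that the authors listed for forced loss against go-through-tube, 8 carry the phylum Bacteroidota and the order Bacteroidales in the deposited taxonomy, and these 8 are described here. Taxonomy picked them out of the 16, which the authors had already selected. They belong to 4 families: the Prevotellaceae with ASV3 of Alloprevotella, the Muribaculaceae with ASV92, ASV78, ASV2010, ASV111 and ASV68, none of which has a named genus, the Rikenellaceae with ASV136 of Alistipes, and the Tannerellaceae with ASV226 of Parabacteroides. The other 8 listed ASVs are Firmicutes.

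The libraries are 16S amplicons from colon contents of male Mus musculus aged 6 to 8 weeks. Of the 31 samples, 12 enter this comparison, 6 labelled forced loss and 6 labelled go-through-tube, all of Rank1. Rank refers to social dominance, for which a common assay is the tube test, where one of a pair of mice backs out of a narrow tube. The strain and the course of either treatment are not given in the labels, and the 12 samples share sex and age range as well as rank. The labels number the samples as replicates without naming animals or cages, so a p-value here reflects variation among these samples, which may be technical. The table of the other ranks lists 0 of the 8 ASVs, so they could not be followed across ranks.

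Gut Bacteroidales break down plant and host glycans with enzymes encoded in polysaccharide utilization loci and release acetate, propionate and succinate. Muribaculaceae are among the most abundant families of the mouse gut. Alloprevotella is a saccharolytic genus that forms acetate and succinate, Alistipes is a bile-tolerant genus often linked to protein breakdown, and Parabacteroides is a bile-tolerant genus of the lower gut. Read numbers of different taxa also depend on the number of 16S gene copies per genome and on the match to the primers, so they rank reads and not cells.

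In short, the listed Bacteroidales fell into 5 ASVs with a higher mean read count under forced loss (ASV3, ASV92, ASV78, ASV2010 and ASV111) and 3 with a lower one (ASV136, ASV226 and ASV68), and 0 of the 8 single counts passed the edgeR test. Ratios between ASVs of the same library separated these sets. Such a ratio needs no library depth where both ASVs have reads. Where an ASV has none, the ratio follows the reads of the other ASV and with them the unknown depth. All 15 pairs that join one of the 5 with one of the 3 passed an exact permutation test, and 0 of the 13 pairs within a set did. Over libraries where both ASVs had reads, 9 of the 28 pairs could be tested and 4 passed, with p-values adjusted over testable pairs only. Each of the 8 carries a p-value under 0.05 in the authors' deposited table, from these same samples, so a pair with opposite directions is likely to pass. Over all 16 listed ASVs 95.3% of the pairs with opposite directions passed, and 0% of those with the same direction.

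Summed over the 8 ASVs, forced loss libraries had 944 to 8618 reads and go-through-tube libraries 452 to 2535. Over the 12 libraries they made up 7.31% of the common total of 480358 reads behind the authors' fractions, and ASV3 alone gave 80.4% of their reads. The listed ASVs are a chosen part of each library, so these sums are not depths and the true depth of each library is unknown here. Libraries that stand apart for 1 or more ASVs were go-through-tube replicate 5, with 0 reads of ASV3, go-through-tube replicate 2, which carried ASV78 and ASV2010, and forced loss replicate 1, with the fewest ASV3 reads of its group.

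ASV3 of Alloprevotella had 410, 3293, 5217, 7873, 1805 and 4204 reads in forced loss replicates 1 to 6. It had 1022, 1839, 859, 456, 0 and 1258 reads in go-through-tube replicates 1 to 6. The groups overlapped, because forced loss replicate 1 lay below 5 of the 6 go-through-tube libraries. The means were 3800.3 ± 2626 and 905.7 ± 637.7 reads (SD, n = 6 each), and the edgeR quasi-likelihood difference of log2 2.07 (SE 1.12) had an adjusted p of 0.146. Without go-through-tube replicate 5 the difference was smaller, at log2 1.81, with a smaller SE of 0.65 and an edgeR adjusted p of 0.0327. ASV3 was the most abundant of the 8 in 6 of 6 forced loss and 5 of 6 go-through-tube libraries. Its share of Bacteroidales reads was 43.4% to 92% with a median of 85.3% under forced loss, and 0% to 80% with a median of 70.8% under go-through-tube. In go-through-tube replicate 5, 0 of 452 Bacteroidales reads were ASV3, which allows a share of up to 0.664% (3 counts). Such limits cover counting error only, since PCR reads are not independent molecules.

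**Figure D1:**
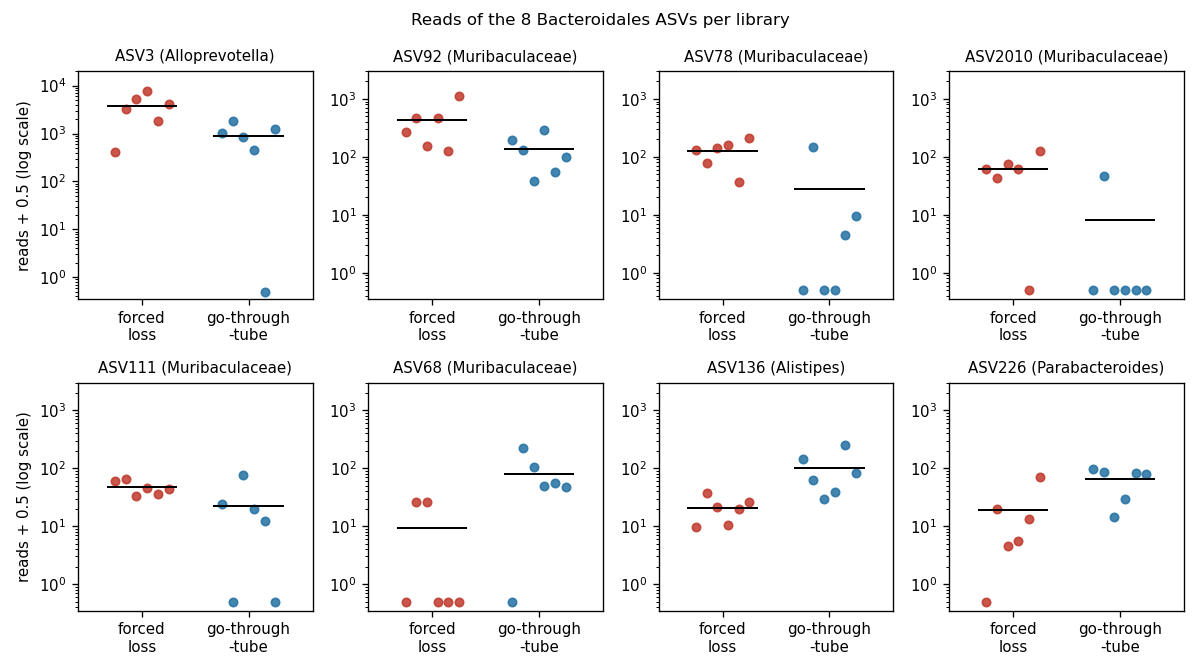
Reads plus 0.5 on a log scale for each of the 8 Bacteroidales ASVs, with 1 point per library and the group mean as a black line; points at the bottom of a panel are libraries without a read. ASV3, ASV92, ASV78, ASV2010 and ASV111 have higher means under forced loss, ASV68, ASV136 and ASV226 under go-through-tube, and the groups overlap in all 8 panels.

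Muribaculaceae ASVs differed among themselves in direction. ASV92, the most abundant of the 5, ranged from 124 to 1104 reads (median 366.5) in the forced loss group and from 37 to 292 (median 114) in the go-through-tube group. It had reads in all 12 libraries and ranked 2 of 8 in 6 of 6 forced loss libraries and in 3 of 6 go-through-tube libraries. Its edgeR difference of log2 1.68 (SE 0.95) did not pass (edgeR adjusted p = 0.146), and with the listed totals as library size it was 0.038.

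ASV78 and ASV2010 were found in more forced loss than go-through-tube libraries. ASV78 had 132, 77, 141, 162, 36 and 208 reads in forced loss replicates 1 to 6 and ranked 3 of 8 in each of them. In go-through-tube replicates 1 to 6 it had 0, 150, 0, 0, 4 and 9 reads. ASV2010 had 62, 43, 76, 61, 0 and 125 reads under forced loss and 0, 46, 0, 0, 0 and 0 in the other group. Reads of ASV78 were thus found in 6 of 6 and 3 of 6 libraries and reads of ASV2010 in 5 of 6 and 1 of 6, and go-through-tube replicate 2 was the single library of its group with over 9 reads of ASV78 or any read of ASV2010. The edgeR differences were log2 2.21 (SE 1.44, adjusted p = 0.188) for ASV78 and log2 2.98 (SE 1.68, adjusted p = 0.146) for ASV2010. Without go-through-tube replicate 2 they were 5.53 (edgeR adjusted p = 0.00189) and 8.94 (edgeR adjusted p = 0.000359), the latter against a group with no read left, so that its size depends on the prior count.

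The reads of ASV78 and ASV2010 kept a narrow ratio where both were found. ASV78 over ASV2010 was 2.13, 1.79, 1.86, 2.66 and 1.66 in forced loss replicates 1, 2, 3, 4 and 6, and 3.26 in go-through-tube replicate 2. The SD of the log2 ratio over these 6 libraries was 0.376, the smallest among the 45 pairs of listed ASVs with at least 6 such libraries. The next smallest was 0.969 for ASV92 over ASV2010 followed by 1.02 for ASV136 over ASV226. Among the 6 libraries without ASV2010, ASV78 had 36, 9, 4, 0, 0 and 0 reads. The 36 reads were in forced loss replicate 5, which with 0 reads of ASV2010 lies outside the narrow ratio. This measure was chosen after the values were seen and is given without a test, and 5 of its 6 libraries are from one group.

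**Figure D2:**
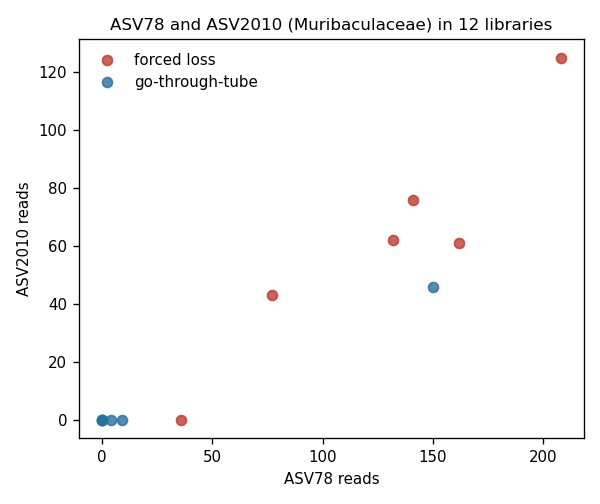
Reads of ASV2010 against reads of ASV78 on linear axes, 1 point per library, forced loss in red and go-through-tube in blue. In the 6 libraries with both, ASV78 had 1.66 to 3.26 reads for each read of ASV2010, and go-through-tube replicate 2, with 150 and 46 reads, is the blue point among the red ones.

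ASV111 had 32 to 65 reads in all 6 forced loss libraries, with a median of 44.5, the narrowest relative range of the 8 in that group. Under go-through-tube it had 24, 0, 76, 19, 12 and 0 reads in replicates 1 to 6, so replicate 3 exceeded every forced loss library. Its edgeR difference of log2 1.10 (SE 1.29, adjusted p = 0.427) turned to -0.58 with TMMwsp scaling, -0.21 with the listed totals and -0.09 by DESeq2. It was 2.08 when go-through-tube replicate 3 was left out, 2.58 by limma on centred log-ratios and 2.34 with the replicate block, and it passed under none of these.

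ASV68 ran against the other 4 Muribaculaceae ASVs. It had 26 reads in each of forced loss replicates 2 and 3 and 0 in the other 4 forced loss libraries, and 0, 225, 105, 49, 54 and 47 reads in go-through-tube replicates 1 to 6. The groups overlapped through go-through-tube replicate 1, which had 0 reads. The edgeR difference was log2 -3.19 (SE 1.61, adjusted p = 0.136), or -4.77 (edgeR adjusted p = 0.0128) with the listed totals. It was -3.91 without forced loss replicate 2 or 3 and -2.54 when go-through-tube replicate 2 was dropped. The sum of the 5 Muribaculaceae ASVs hid this split, with 673 ± 439.2 reads per forced loss library and 271 ± 158.3 per go-through-tube library (SD, n = 6 each). As a share of Bacteroidales reads the family held 7.58% to 55.6% and 9.92% to 40.8%, ranges that overlapped widely.

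ASV136 of Alistipes had 9, 37, 21, 10, 19 and 26 reads in forced loss replicates 1 to 6, against 145, 61, 29, 38, 246 and 81 in go-through-tube replicates 1 to 6. It was present in all 12 libraries, and of the 36 comparisons of one library from each group the go-through-tube library was higher in 35. Forced loss replicate 2 with 37 reads against go-through-tube replicate 3 with 29 was the exception. The means were 20.33 ± 10.5 and 100 ± 82.6 reads (SD, n = 6 each), 4.92-fold higher under go-through-tube. The edgeR difference was log2 -2.29 (SE 1.07, adjusted p = 0.116), or -2.34 by DESeq2 (adjusted p = 0.0105).

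As a share of Bacteroidales reads, 2 of the 8 ASVs did not overlap between the groups, ASV136 and ASV226, against 12.5% of the 16 listed ASVs when each is set over the same Bacteroidales reads. ASV136 made up 0.116% to 0.953% in forced loss libraries and 2.41% to 54.4% in go-through-tube libraries. ASV226 reached at most 1.21% in the forced loss group and at least 1.25% in the other, nearly without a gap. The highest share of ASV136 was in go-through-tube replicate 5, the library without ASV3, where 246 of 452 Bacteroidales reads were ASV136 (54.4%, 95% Wilson interval 49.8% to 59%). ASV3 enters the denominator of every such share, so a share falls where ASV3 is abundant.

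ASV226 of Parabacteroides had 0, 19, 4, 5, 13 and 70 reads in the forced loss replicates, in the same order, and 97, 86, 14, 29, 81 and 78 in the go-through-tube replicates. Forced loss replicate 6 reached the go-through-tube range, and go-through-tube replicate 3 lay below forced loss replicate 2. The edgeR difference of log2 -1.79 (SE 1.24) did not pass (edgeR adjusted p = 0.202), and the value was -3.5 with the listed totals (edgeR adjusted p = 0.0434). Leaving out forced loss replicate 6 moved it to -2.95 (edgeR adjusted p = 0.0955). Alistipes and Parabacteroides together made up 0.174% to 1.66% of Bacteroidales reads in forced loss libraries and 3.84% to 72.4% in go-through-tube libraries. Neither share overlapped between the groups on its own, so their sum could not overlap either. ASV68, of the same direction but with overlap, is not in this sum.

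**Figure D3:**
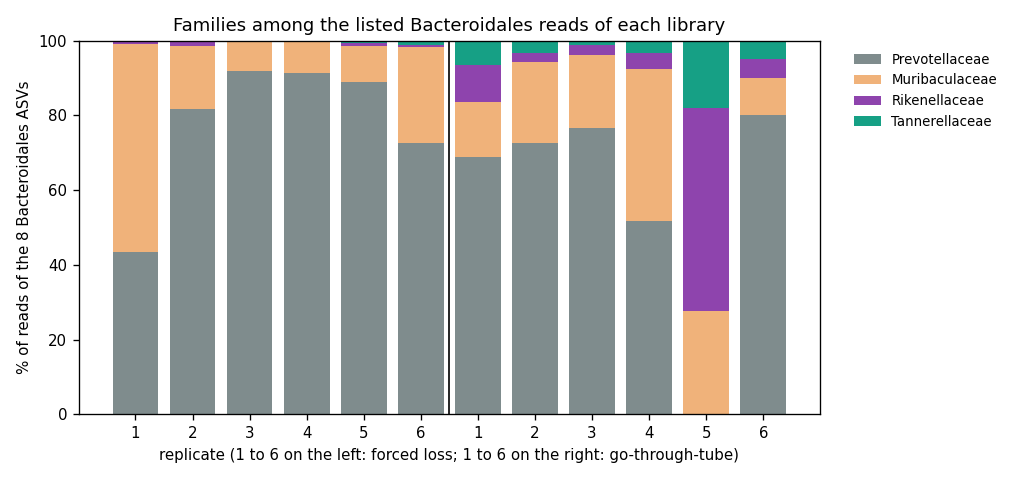
Share of each family among the reads of the 8 Bacteroidales ASVs, as stacked percentages per library, forced loss on the left of the line and go-through-tube on the right. Rikenellaceae and Tannerellaceae together stay at 1.66% or less in the 6 forced loss libraries and at 3.84% or more in the 6 go-through-tube libraries. Neither family overlaps between the groups on its own, so their sum cannot. In go-through-tube replicate 5 there is no Prevotellaceae.

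Single counts were tested over all 16 listed ASVs. By edgeR 0 of the 8 Bacteroidales passed an adjusted p of 0.05, where 31.2% of the listed ASVs did, all 5 of them Firmicutes. At an unadjusted edgeR p under 0.05 there was 1 of 8, ASV136, against 37.5% of the listed ASVs. DESeq2 called 2 of 8, limma on centred log-ratios 5 of 8, and edgeR 1 of 8 with TMMwsp and 3 of 8 with the listed totals. The same 5 Firmicutes also passed under each of these settings. Thus the Bacteroidales were called no more often than the Firmicutes in any of them. An exact two-sided permutation test of the counts gave an unadjusted p under 0.05 for 7 of 8, against 56.2% of the listed ASVs, and 0 of 8 after adjustment. The median absolute edgeR difference was log2 2.14 for the 8 and 2.25 for the 16. A higher mean under forced loss was found for 5 of 8, against 50% of the listed ASVs, and the read counts of the groups overlapped for all 16 ASVs (0% without overlap).

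These calls changed with the library scale, which is unknown, so the ASVs were next compared with each other within a library. Depth cancels in that comparison only where both ASVs had reads. For each pair the value was the log2 ratio of reads plus 0.5, and the groups were compared by the difference in its mean with an exact two-sided permutation test over all 462 arrangements of the group labels. The smallest p this design allows is 0.00216, and p-values were adjusted over all 120 pairs of listed ASVs. Of the 28 pairs of Bacteroidales ASVs 15 passed, or 53.6%, against 50.8% of all pairs, so passing is no mark of the Bacteroidales among the listed ASVs. With 0.5 added, the groups did not overlap in 4 of the 28 pairs, or 14.3%, against 12.5% of all pairs. For ASV3 over ASV226, counted among these 4, the groups overlap by the reads alone. The median absolute difference was log2 4.02 over the 28 pairs and 4.78 over the 120.

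ASV3 over ASV136 was the ratio of Alloprevotella to Alistipes. Its log2 value was 5.43 to 9.55 in the forced loss libraries and -8.95 to 4.90 in the go-through-tube libraries, without overlap. In median terms there were 121 reads of ASV3 for each read of ASV136 in the forced loss group and 13.5 in the other. The mean difference was log2 5.34 (SE 2.26, exact permutation p = 0.00216, adjusted p = 0.0173). The value of -8.95 comes from go-through-tube replicate 5 and its size depends on the pseudocount, since there ASV136 was at least 82-fold above a floor of 3 reads for ASV3. Without that library the difference was 3.18 (exact permutation, adjusted p = 0.0289).

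ASV3 over ASV226 set Alloprevotella against Parabacteroides. Its log2 value was 9.68, 7.40, 10.2, 10.5, 7.06 and 5.90 in forced loss replicates 1 to 6 and 3.39, 4.41, 5.89, 3.95, -7.35 and 4 in go-through-tube replicates 1 to 6. With 0.5 added the groups did not overlap, with almost no gap between the lowest forced loss value of 5.898 and the highest go-through-tube value of 5.889. By the reads alone these libraries swap order and the groups overlap. Forced loss replicate 6 had 4204 reads of ASV3 to 70 of ASV226, and go-through-tube replicate 3 had 859 to 14. With a pseudocount of 0.1 the exact permutation adjusted p was 0.0186. The mean difference was log2 6.07 (SE 2.12, exact permutation p = 0.00216, adjusted p = 0.0173). It was 4.12 once go-through-tube replicate 5 was left out (exact permutation, adjusted p = 0.0289). ASV136 over ASV226, by contrast, averaged log2 1.25 ± 1.89 and 0.52 ± 0.73 in the same order of groups (SD, n = 6 each, exact permutation p = 0.429, adjusted p = 0.626). That difference of 0.73 (SE 0.83) lay within its error, which does not show that the ratio was equal.

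Within the Muribaculaceae, ASV68 was separated from ASV78. ASV78 over ASV68 had log2 values of 1.55 to 8.70 in forced loss libraries and -7.72 to 0 in the others, where the 0 is replicate 1 with no read of either ASV. The difference was log2 9.35 (SE 1.82, exact permutation p = 0.00216, adjusted p = 0.0173). The difference of ASV68 over ASV2010 was -9.02 (SE 1.95, exact permutation p = 0.00433, adjusted p = 0.02). Libraries without a read make the size of both depend on the pseudocount, at 8.32 and -7.86 with 1 read and 11.7 and -11.7 with 0.1, and neither pair could be tested over libraries where both ASVs had reads. The family thus held ASVs whose ratio to each other differed between the groups, and a family sum carries no single direction for them. Of the 6 pairs among ASV92, ASV78, ASV2010 and ASV111, none passed. The smallest p among those 6 was that of ASV92 over ASV78, at log2 1.57 ± 0.91 and 5.14 ± 3.57 (SD, n = 6 each, exact permutation p = 0.0476, adjusted p = 0.0879).

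Ratios of Muribaculaceae ASVs to Alistipes and Parabacteroides also differed. ASV78 over ASV226 had log2 values of 1.43 to 8.05 in forced loss libraries and -7.61 to 0.80 in the others, without overlap (difference 7.95, SE 1.59, exact permutation p = 0.00216, adjusted p = 0.0173). ASV92, which had reads in every library as did ASV136, gave a ratio to ASV136 that needs no pseudocount for zeros. It averaged log2 4.14 ± 1.25 in the forced loss group and 0.48 ± 1.63 in the other (SD, n = 6 each), a difference of 3.66 (SE 0.84, exact permutation p = 0.00649, adjusted p = 0.0223). ASV92 over ASV226 differed by 4.38 (exact permutation p = 0.00433, adjusted p = 0.02). ASV78 over ASV136 differed by 7.22 and ASV136 over ASV2010 by -6.88, with exact adjusted p-values of 0.0223 and 0.02. ASV226 over ASV2010 differed by -7.61 with 0.02. Libraries without a read make the sizes with ASV78 or ASV2010 depend on the pseudocount. With 1 and 0.1 reads added, ASV78 over ASV136 differed by 6.66 and 8.43, and ASV78 over ASV226 by 7.20 and 9.56. ASV136 over ASV2010 differed by -6.19 and -8.45, and ASV226 over ASV2010 by -6.74 and -9.58. None of these ratios could be tested over libraries where both ASVs had reads.

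The remaining pairs across the sets depended more on single libraries. ASV3 over ASV68 differed by 7.47 (SE 2.61, exact permutation, adjusted p = 0.0282) and kept its call in 8 of 12 tests that left out a library, and ASV136 over ASV111 by -4.77 (SE 1.44, exact permutation, adjusted p = 0.0282) in 9 of 12. The last 3 of the 15 pairs had exact adjusted p-values of 0.03 to 0.0468 and kept their calls in 3, 5 and 6 of the 12 tests. The other 10 pairs kept theirs in all 12. Where only libraries with reads of both ASVs were kept, 9 of the 28 pairs could be tested and 4 passed. Over all listed ASVs 14 pairs could be tested and 4 passed. The p-values of this setting were adjusted over those 14 pairs only, a lighter adjustment than in the main test.

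**Figure D4:**
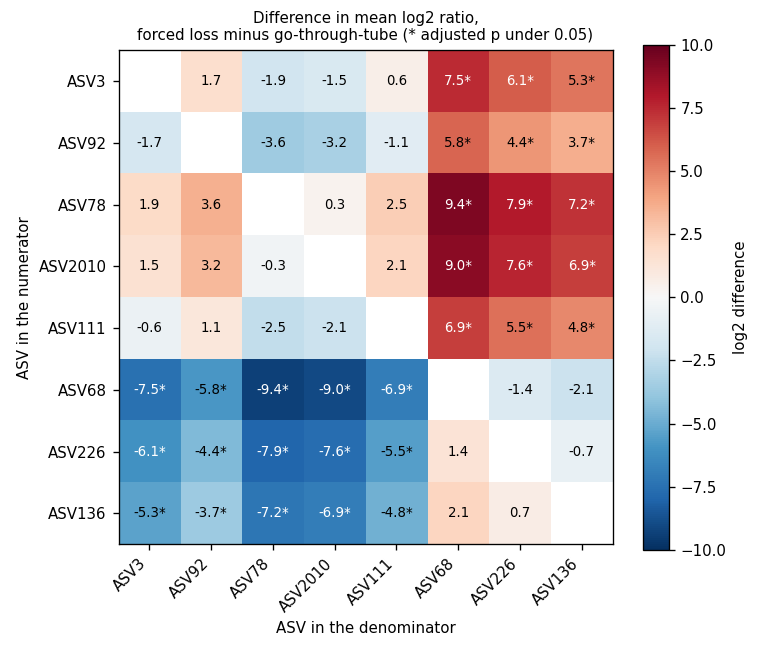
Difference in the mean log2 ratio between groups, forced loss minus go-through-tube, for the row ASV over the column ASV; colour and number give the same value, and a star marks an exact permutation adjusted p under 0.05. The stars fill the blocks that join ASV3, ASV92, ASV78, ASV2010 and ASV111 with ASV68, ASV226 and ASV136, 15 pairs shown once on each side of the diagonal, and none of the 13 pairs inside either set has one.

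Summed by family, the same ratios were described without a test, because the Muribaculaceae sum mixes ASVs of both directions. Muribaculaceae over Rikenellaceae had log2 values of 5.79, 4.17, 4.32, 6.12, 3.33 and 5.8 in forced loss replicates 1 to 6 and 0.59, 3.16, 2.89, 3.23, -0.97 and 0.94 in go-through-tube replicates 1 to 6. The groups did not overlap, and the means of 4.92 ± 1.13 and 1.64 ± 1.72 (SD, n = 6 each) differed by 3.29 (SE 0.84). In median terms this was 33.3 against 3.77 Muribaculaceae reads per Alistipes read. Muribaculaceae over Tannerellaceae averaged 6.17 ± 2.26 and 2.16 ± 1.43 (SD, n = 6 each), with a narrow overlap between 3.86 in forced loss replicate 5 and 3.91 in go-through-tube replicate 3. Its highest value of 10 was that of forced loss replicate 1, which had no read of ASV226.

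Prevotellaceae over Muribaculaceae, the ratio of the most abundant families, overlapped between the groups. Its log2 values were -0.36, 2.28, 3.60, 3.43, 3.20 and 1.5 in the forced loss replicates and 2.23, 1.74, 1.98, 0.34, -7.97 and 3.01 in the go-through-tube replicates. The means of 2.28 ± 1.51 and 0.22 ± 4.11 (SD, n = 6 each) differed by 2.06 (SE 1.79), and by 0.42 without go-through-tube replicate 5. Apart from that library, the go-through-tube values of 0.34 to 3.01 lay inside the forced loss range of -0.36 to 3.60.

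**Figure D5:**
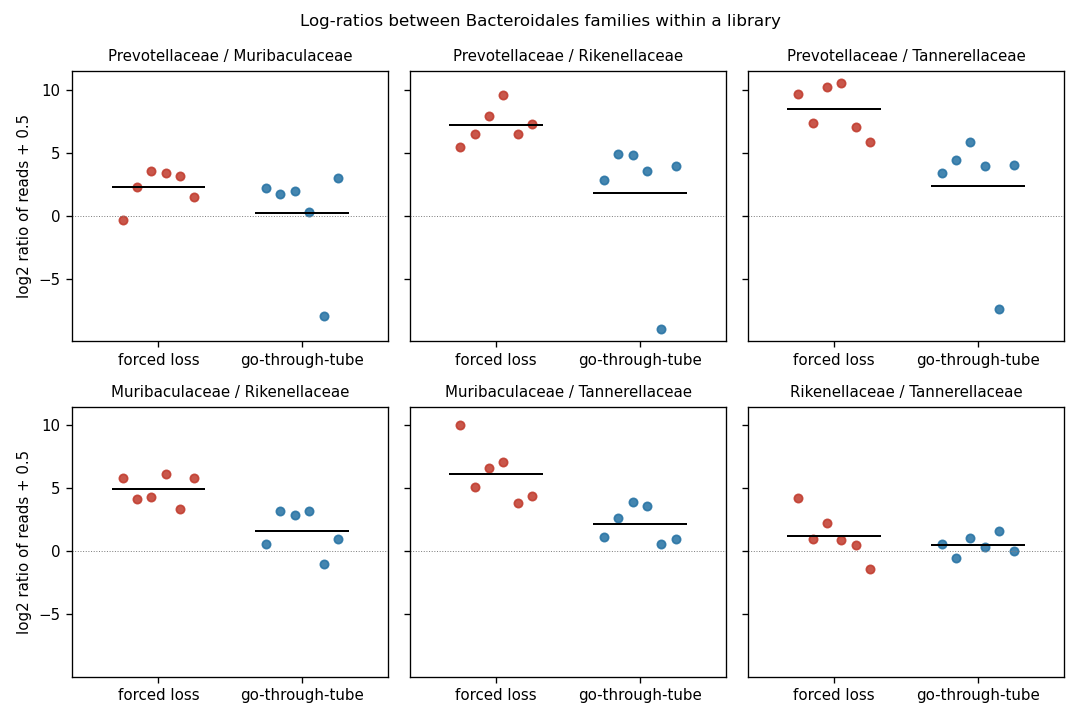
Log2 ratio of reads plus 0.5 between each pair of families, 1 point per library and the group mean as a black line; the dotted line marks equal reads. Ratios of Prevotellaceae and Muribaculaceae to Rikenellaceae do not overlap between the groups. That of Prevotellaceae to Tannerellaceae is free of overlap only with the 0.5 added, and overlaps by the reads alone. The low point in the 3 upper panels is go-through-tube replicate 5.

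The spread of a ratio inside the groups was used to name the listed ASV most like each member, as the smallest pooled within-group SD of the log2 ratio over the 12 libraries. These libraries share groups and the ASVs of each pair share depth, and no test is attached. ASV136 and ASV226 were most like each other (SD 1.43), as were ASV78 and ASV2010 (SD 2). ASV92 was nearest to ASV136 (SD 1.45), although their mean ratio differed between the groups, and ASV3 was nearest to ASV92 (SD 3.20), a value that includes the library without ASV3. For ASV111 and ASV68 the nearest listed ASV was a Lachnospiraceae variant, ASV170 (SD 2.35) and ASV166 (SD 2.66). Shared absence counts as likeness in this measure, and ASV166 had no read in any forced loss library. Among pairs with reads of both ASVs in at least 6 libraries, ASV111 varied least against ASV78 (SD 1.4 over 7 libraries, groups pooled). ASV68 varied least against ASV226 (SD 1.45 over 7 libraries, groups pooled), and its pair with ASV166 had too few such libraries. The largest within-group SD for any of the 8 was 5.56, for ASV3.

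Per the authors' deposited table, the p-values of the 8 ASVs ran from 0.0167 for ASV2010 to 0.0453 for ASV3 and ASV92. All 8 lay below 0.05, with no test named and no adjustment stated in the authors' deposited table.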

How the data were processed

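Microbial DNA of colon contents was amplified by PCR and sequenced as paired reads on an Illumina NextSeq, per the labels' protocols. Primers, denoising, taxonomy assignment and how the listed ASVs were picked are not stated in the labels or headers. The authors deposited whole-number read counts per ASV and library, a p-value per ASV, and the fraction each ASV makes up of a common read total. The 8 members and the lists were chosen with earlier results of these data known.

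Columns were matched to samples by library name. Within each group all 30 library pairs differed by chi-square over the listed ASVs (largest p = 3.9e-40), so none was treated as a copy. ASVs needed 10 reads in sum and reads in 4 libraries, which all 16 met. The count test was edgeR 4.0.16 (quasi-likelihood, equal library sizes of 40030 reads, Benjamini-Hochberg over the 16), since scaling factors from chosen ASVs would follow those that differ. Alternatives used TMM, TMMwsp, the listed totals, DESeq2 1.42.0, limma 3.58.1 on centred log-ratios, other filters, a replicate block, permutation of the counts and leaving out each library. Log2 ratios within a library used reads plus 0.5, with 0.1 and 1, ranks, limma and libraries with both ASVs as alternatives (scipy 1.17.1). Differences are forced loss minus go-through-tube. The code was tested on simulated data. All 8 ASVs are named, with up to 12 pairs past the threshold and all pairs of families with 1 ASV each. No sequence is printed.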

Additional observations from a re-analysis of the deposited data

Results flagged for a closer look

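A gap test on 48 groups of 6 libraries (the reads of the 8 ASVs, the family ratios and the named pairs) placed 1 library far from the other 5 in 10 groups. By chance about 1 in 20 groups would stand apart under a normal distribution, and counts rich in zeros are far from one. For reads these were forced loss replicate 6 for ASV92 (1104 reads) and ASV226 (70 reads), go-through-tube replicate 2 for ASV78 (150 reads) and ASV2010 (46 reads), and go-through-tube replicate 3 for ASV111 (76 reads). For log2 ratios, go-through-tube replicate 5 was low for Prevotellaceae over Muribaculaceae (-7.97), over Rikenellaceae (-8.95) and over Tannerellaceae (-7.35), all 3 through its 0 reads of ASV3. For ASV136 over ASV2010, forced loss replicate 5 was high (5.29) and go-through-tube replicate 2 was low (0.403). Their reads of ASV2010 were 0 and 46, each the exception of its group.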

How the results depend on the processing

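With edgeR at equal library sizes 0 of 8 Bacteroidales ASVs passed. The count was 1 with TMMwsp, 3 with the listed totals, 2 by DESeq2, 5 by limma on centred log-ratios, and 0 to 2 when each library was left out (2 without go-through-tube replicate 2, 1 without replicate 5). TMM, the stricter filter, permutation of the counts and the replicate block gave 0. Dropping the filter only repeats the main fit, because every listed ASV met it. The 5 Firmicutes called by the main fit also passed with TMMwsp, the listed totals, DESeq2 and limma. The direction of ASV111 reversed with TMMwsp (-0.58), the listed totals (-0.21) and DESeq2 (-0.0914). The other 7 ASVs kept their direction under all 9 settings, including the unfiltered fit that repeats the main one, and in all 12 fits that left out a library.

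Of the 28 pairs 15 passed with pseudocounts of 0.5, 1 and 0.1 and by limma, 12 on ranks, and 10 to 15 without each library. Over libraries where both ASVs had reads 4 of 9 testable pairs passed, against 4 of 14 among all listed ASVs. Only pairs with 4 such libraries in each group could be tested, and the adjustment covered those 14 pairs alone. The sign-flip test with the replicate number as a block passed 0 pairs, with 12 at an unadjusted p under 0.05. Its smallest possible p is 0.0312, so a pair could pass after adjustment only if most of the 120 pairs reached that p. The smallest sign-flip adjusted p among the 28 pairs was 0.0915. The test therefore cannot judge the stability of single pairs. Same-numbered libraries did not deviate together (correlations of -0.325 to 0.175), so the numbers were not taken as pairs. None of the 13 named pairs reversed. The 3 family ratios with the Muribaculaceae sum kept their sign under every alternative run, and the one with Prevotellaceae fell from 2.06 to 0.42 without go-through-tube replicate 5. The unknown depth limits every statement on single counts. Libraries at 0 reads limit ratios with every ASV but ASV92 and ASV136, because depth does not cancel in them.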
